A study of Mus musculus with 7 samples.

Results

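Interferon-stimulated genes were followed in mouse uterine tissue after infusion of the chemokine CXCL12. The list holds 42 gene symbols, chosen by name but with earlier results of these data known. It covers transcription factors of the interferon response, the ISG15 system, nucleic acid sensors, antiviral effectors, interferon-inducible GTPases and antigen-processing genes. All 42 symbols were found, each on a single row, among the 23282 rows of every table, and all 42 had enough reads to be tested. The tissue came from C57BL/6 females, 6 weeks old, in which recombinant human CXCL12 in saline was infused into a uterine horn and saline alone into the opposite horn. QuantSeq libraries, which read the 3′ end of polyadenylated transcripts, were available from 2 saline-treated uteri (saline), 2 CXCL12-treated uteri at Day 3 after infusion and 3 at Day 8. The time after infusion of the saline libraries is not labelled. Nor do the labels tell which libraries came from separate animals or from both horns of the same animal, so the p-values measure only the spread between these samples, which may be technical.

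Interferons are secreted cytokines that act through JAK kinases and STAT proteins. Type I interferons lead to a complex with STAT2 and IRF9 that binds the interferon-stimulated response element (ISRE), while interferon gamma acts through the gamma-activated site (GAS), and many antiviral genes carry such elements near their start. In the uterus, interferon epsilon is made constitutively by the epithelium and varies with the hormonal state, natural killer cells are a source of interferon gamma, and some of these genes, Isg15 among them, are known to change in the decidua and the pregnant endometrium.

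The 6 count libraries held between 6908790 and 12308982 counts, so that 3 counts, taken as the floor of detection, correspond to between 0.250 and 0.371 CPM (counts scaled to a common library size). This floor covers counting error only. For Day 3 replicate 1, log2-transformed normalized values were deposited in place of counts, and its CPM were estimated from them. The label of Day 8 replicate 1 and the file that holds it disagree, since the file is named for Day 3. The label was followed, and the counts of changed genes are also given with this library left out and with it counted at Day 3. The tissue label was met by its markers: the summed level of 6 stromal markers lay between 2539 and 3873 CPM, and that of 6 epithelial markers between 431 and 1026 CPM. Col1a1 was the largest stromal marker in every library, from 1037 CPM in saline 1 to 2904 CPM in Day 3 replicate 2. Hoxa10 ran between 84.4 and 293 CPM, Hoxa11 between 63.8 and 206 CPM and Pgr between 187 and 743 CPM. Markers of neighbouring tissues were unequal between libraries: 5 adipocyte markers summed to 1785 and 1788 CPM in saline 2 and Day 3 replicate 1 but to at most 355 CPM elsewhere, and 5 ovarian markers to 1227 CPM in Day 8 replicate 2 but to at most 257 CPM elsewhere. In such bulk tissue, fewer cells of a type and less RNA per cell cannot be told apart.

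To show what the list shares in sequence, promoter windows of RefSeq (mouse build GRCm38.p6, 250 bases before to 50 bases after each start) were searched for the ISRE core TTTCNNTTTC on both strands. A window was found for 33 of the 42 genes. The ISRE core was present in 17 of these 33 genes (51.5%), against 1079 of 27025 genes with a window (3.99%). The GAS letters TTCNNNGAA, which read the same on both strands and may share bases with an ISRE, were present in 10 of the 33 (30.3%), against 9.55% of all genes. A match is a description of the letters and does not show that a factor binds there. The 120 bases before the start are shown for 5 genes whose values are described below. All 5 hold a match, whereas 16 of the 33 genes hold none, and Gbp2 and Irgm2 share a role. The bases are written 5′ to 3′ on the gene's strand, with every ISRE match in capitals.
Isg15, chr4:156200819-156200938, minus strand: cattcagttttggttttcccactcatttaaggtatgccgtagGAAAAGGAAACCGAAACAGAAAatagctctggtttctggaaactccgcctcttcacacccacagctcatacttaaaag
Ifit1, chr19:34640769-34640888, plus strand: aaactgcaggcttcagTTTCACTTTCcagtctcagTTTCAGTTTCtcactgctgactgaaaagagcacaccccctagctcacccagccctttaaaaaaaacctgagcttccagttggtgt
Rsad2, chr12:26456453-26456572, minus strand: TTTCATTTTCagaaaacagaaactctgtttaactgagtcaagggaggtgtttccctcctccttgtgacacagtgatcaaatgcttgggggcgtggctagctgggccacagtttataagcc
Gbp2, chr3:142620543-142620662, plus strand: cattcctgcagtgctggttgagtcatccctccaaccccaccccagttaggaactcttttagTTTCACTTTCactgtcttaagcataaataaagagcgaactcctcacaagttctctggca
Irgm2, chr11:58214857-58214976, plus strand: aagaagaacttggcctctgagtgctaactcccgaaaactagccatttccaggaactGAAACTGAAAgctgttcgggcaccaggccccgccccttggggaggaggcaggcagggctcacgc

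The capitals of Isg15 hold 3 overlapping matches, which begin 78, 72 and 66 bases before the start. The matches of Ifit1 begin 104 and 85 bases before it. Rsad2 has its match 120 bases, Gbp2 59 bases and Irgm2 64 bases before the start. Several of the 42 genes lie side by side in the genome: Ifit2, Ifit3 and Ifit1 on chromosome 19, Gbp7, Gbp3 and Gbp2 on chromosome 3, Oas2, Oas3 and Oas1a on chromosome 5, Igtp and Irgm2 on chromosome 11, Rsad2 and Cmpk2 on chromosome 12, and Psmb9, Tap1 and Psmb8 on chromosome 17. Because reads with multiple alignments were counted, the last 300 bases of the transcripts were compared: 33 of the 42 genes shared no run of 50 bases with another gene, and the highest share was 21.1% of such runs in Oas1a, all with Oas1g. The counts of Oas1a are therefore uncertain.

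At Day 8, most interferon-stimulated genes lay at levels that overlapped with those of saline. Their median log2 fold change was 0.19, against -0.01 over all 15388 genes tested, and 26 of the 42 had a higher and 16 a lower fitted level than in saline. This median changed with the libraries and the scaling. It was 0.49 (30 genes positive) without Day 8 replicate 1 and 0.62 (39 positive) without saline 1. It turned negative without saline 2 (-0.14, 15 positive), without Day 8 replicate 3 (-0.08, 17 positive), with a block for the replicate number (-0.11, 16 positive) and on total counts (-0.06, 19 positive), where the median of all genes was -0.27. By a fold change of at least 2 with an unadjusted P under 0.05, none of the 42 was counted as higher, where 1.53% of all genes were, and 1 was counted as lower (Mx1), where 1.42% of all genes were. With edgeR's quasi-likelihood test and Benjamini-Hochberg adjustment, no gene of the whole table passed an adjusted p of 0.1 (0% called); the lowest adjusted p among the 42 was 0.956, and 1 of them had an unadjusted P under 0.05 (658 of all genes did). Every Day 8 library lay above both saline libraries in 2 of the 42 genes (Ifi35 and Psmb8), where 9.17% of all genes did, and below them in 1 (Mx1), where 10.1% did.

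Libraries of the same group differed in the common level of the whole list. On log2 values centred on each gene's mean over the 7 libraries, the median of the 42 genes was 0.45 in saline 1 and -0.45 in saline 2, -0.11 and -0.22 in the Day 3 libraries, and -0.46, 0.24 and 0.68 in Day 8 replicates 1, 2 and 3. The libraries of a group thus spanned 1.14 at Day 8 and 0.90 in saline, but 0.10 at Day 3. Saline 1 was above saline 2 in 36 of the 42 genes (85.7%, against 48.7% of all genes), and Day 8 replicate 1 was below both other Day 8 libraries in 37 (88.1%, against 40.2%). Day 8 replicate 1 was the lowest of all 7 libraries in 19 genes (45.2%, against 15.7% of all genes). Day 8 replicate 3 was the highest in 20 and the lowest in 0, for which the share over all genes was not counted. For 38 of the 42 genes the span of the 3 Day 8 libraries on the log2 scale exceeded the difference between Day 8 and saline (90.5%, against 76.8% of all genes).

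**Figure D1:**
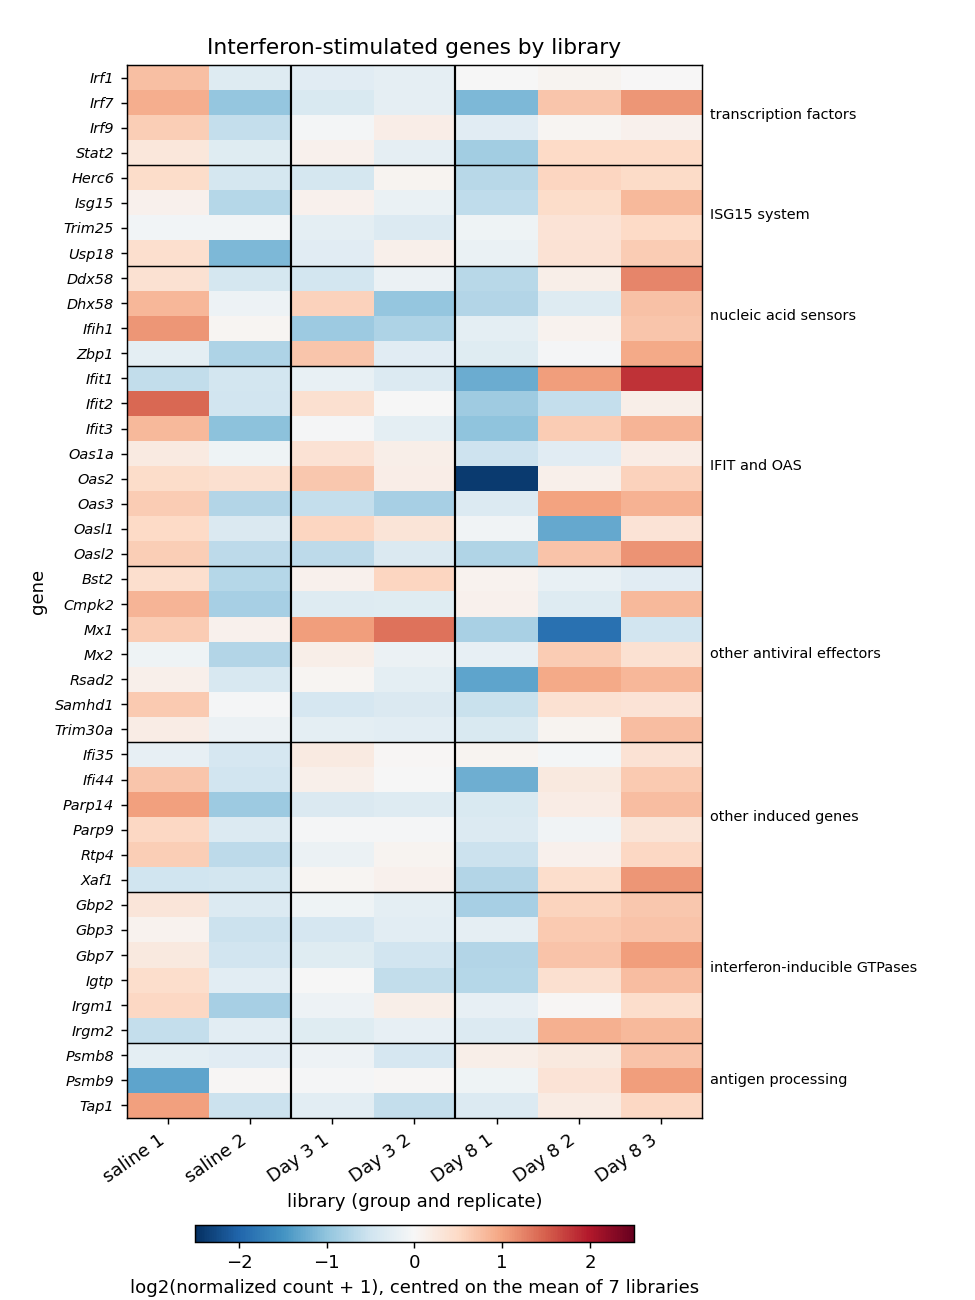
Log2(normalized count + 1) of the 42 genes (rows, grouped by role) in the 7 libraries (columns), centred on each gene's mean, with red above and blue below it. Saline 1 and Day 8 replicates 2 and 3 are mostly red, saline 2 and Day 8 replicate 1 mostly blue, and the Day 3 libraries lie near 0.

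**Figure D2:**
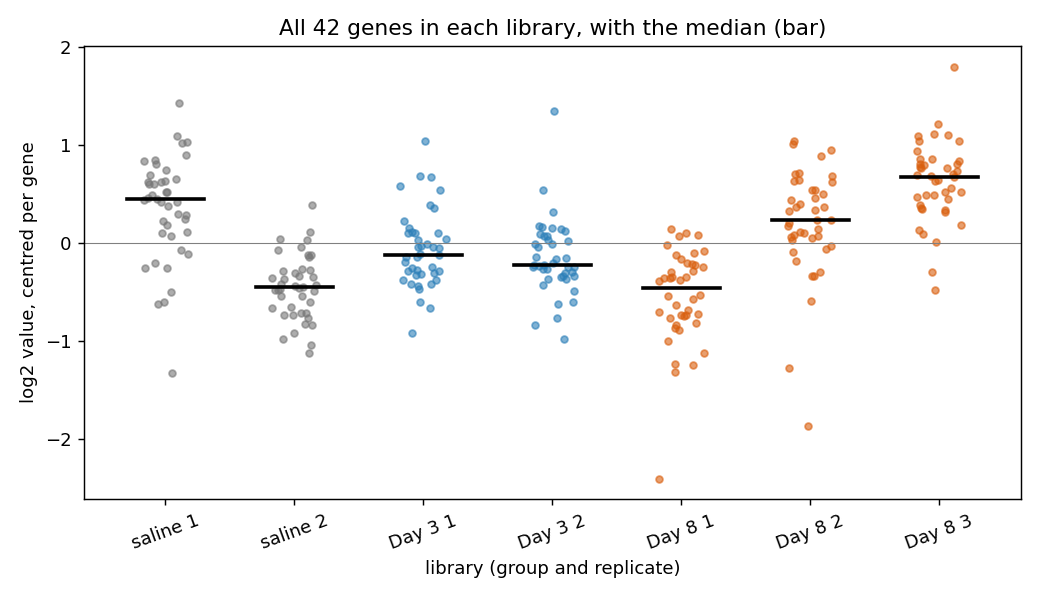
The same centred log2 values by library (one point per gene, 42 per library), with the median as a bar. The medians lie at 0.45 and -0.45 in saline, -0.11 and -0.22 at Day 3, and -0.46, 0.24 and 0.68 at Day 8.

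None of the 4 transcription factors of the response was counted as changed in any of the 3 comparisons. Over all genes, between 1.42% and 2.62% were counted in each direction, so that none of 4 lies near that share. IRF1, STAT2, IRF7 and IRF9 carry interferon signals to the promoters. In replicate order, which is kept throughout, Irf1 measured 92.2 and 46.8 CPM in saline, 50.3 and 50.8 CPM at Day 3, and 58.0, 59.3 and 59.4 CPM at Day 8. The Day 8 libraries were nearly equal and lay between the 2 saline libraries (log2 fold change -0.24, SE 0.34), and all 3 were above both Day 3 libraries (0.27, SE 0.31). Irf7, the factor that amplifies interferon production, spread over a 5.11-fold range, at 19.8 and 5.67 CPM in saline, 8.04 and 8.91 CPM at Day 3, and 4.61, 17.8 and 23.6 CPM at Day 8. Both its saline libraries and its Day 8 libraries contained a low and a high value, so that the groups overlapped. Stat2 and Irf9 had log2 fold changes of 0.19 and -0.12 at Day 8, each smaller than its SE.

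The ISG15 system had 4 of 4 genes with a positive fold change at Day 8 (median 0.43), where 49.3% of all genes had one, and none passed the test. ISG15 is a ubiquitin-like protein, HERC6 attaches it to targets, USP18 removes it and limits receptor signalling, and TRIM25 is a ubiquitin ligase acting on the RNA sensor RIG-I. Isg15 measured 31.6 and 18.8 CPM in saline, 33.1 and 26.7 CPM at Day 3, and 19.0, 40.8 and 53.0 CPM at Day 8. Day 8 replicates 2 and 3 exceeded the other 5 libraries, while Day 8 replicate 1 was close to the lower saline library (log2 fold change 0.58, SE 0.48, unadjusted P = 0.264 in edgeR). Trim25 was steadier, with 43.3 and 45.04 CPM in saline, 40.9 and 37.7 CPM at Day 3, and 43.1, 57.4 and 66.2 CPM at Day 8. Its Day 3 libraries lay below both saline libraries and its Day 8 libraries above both Day 3 libraries, with log2 differences of -0.22 (SE 0.27) and 0.53 (SE 0.25) in limma.

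Among the nucleic acid sensors, Ifih1 stood out at Day 3. Ifih1 encodes MDA5, a cytoplasmic sensor of long double-stranded RNA, Ddx58 encodes RIG-I, Dhx58 the regulator LGP2, and Zbp1 a sensor of Z-form nucleic acids. Ifih1 measured 24.5 and 12.2 CPM in saline, 5.82 and 6.50 CPM at Day 3, and 9.57, 12.5 and 18.9 CPM at Day 8. Both Day 3 libraries lay below all other libraries, and the Day 8 libraries overlapped with saline. By the fold and unadjusted P rule it was counted as lower at Day 3 than in saline (log2 fold change -1.41, SE 0.46, unadjusted P = 0.0147) and as higher at Day 8 than at Day 3 (1.02, SE 0.42, unadjusted P = 0.0403). Neither call passed the adjustment in limma (adjusted p = 0.623 and 0.692), and both share the Day 3 libraries. The call at Day 3 against saline was lost without saline 1 (unadjusted P = 0.0911) and without Day 3 replicate 1 (0.0670), and the call between the days on leaving out any of its libraries but Day 8 replicate 1, with unadjusted P between 0.0681 and 0.150. Ddx58 ranged from 18.8 CPM in Day 8 replicate 1 to 72.3 CPM in Day 8 replicate 3, with 39.4 and 23.6 CPM in saline, 22.4 and 27.9 CPM at Day 3 and 34.2 CPM in Day 8 replicate 2. The extremes of this gene were thus both found at Day 8. Zbp1 measured 6.80 and 5.08 CPM in saline, 13.2 and 6.50 CPM at Day 3, and 6.50, 8.42 and 16.3 CPM at Day 8, with overlapping groups.

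The IFIT proteins, which bind foreign RNA ends, and the OAS enzymes, which activate RNase L, had fold changes in both directions, with 4 positive and 4 negative fold changes at Day 8 and a median of -0.002. Ifit1 had the highest fold change of the 42 genes against saline. It measured 32.1 and 37.3 CPM in saline, 46.4 and 40.5 CPM at Day 3, and 21.1, 100.5 and 175 CPM at Day 8. Day 8 replicates 2 and 3 were above, and Day 8 replicate 1 below, the 4 libraries of the other groups (log2 fold change 1.51, SE 0.77, unadjusted P = 0.0888). Ifit2, of the same group on chromosome 19, behaved otherwise. It measured 12.7 and 3.61 CPM in saline, 6.13 and 4.51 CPM at Day 3, and 2.36, 3.58 and 5.44 CPM at Day 8. Saline 1 alone was high (log2 fold change at Day 8 -1.10, SE 0.64). Oasl2 measured 62.3 and 27.8 CPM in saline, 27.2 and 33.3 CPM at Day 3, and 24.9, 67.4 and 91.1 CPM at Day 8, with saline 1 and Day 8 replicates 2 and 3 high. Oas3 was near the detection floor, at 1.98 and 0.782 CPM in saline, 0.640 and 0.524 CPM at Day 3, and 0.827, 2.83 and 2.20 CPM at Day 8. Oas2 stayed under 4 CPM in every library and had its lowest value, 0.354 CPM, in Day 8 replicate 1, where 3 reads stood for it.

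Of the other antiviral effectors, Mx1 was the only one of the 42 genes counted as changed at Day 8 against saline. Mx1 encodes a dynamin-like GTPase against influenza viruses, and C57BL/6 mice are known to carry a defective allele of it. It measured 4.08 and 2.93 CPM in saline, 5.17 and 6.40 CPM at Day 3, and 1.30, 0.750 and 1.68 CPM at Day 8. The 3 groups did not overlap, but the values rested on few reads, 33 and 30 in saline, 61 in Day 3 replicate 2, and 11, 9 and 16 at Day 8. The log2 fold change was -1.49 (SE 0.59, unadjusted P = 0.0382 and adjusted p = 0.956 in edgeR) against saline and -2.25 (SE 0.55, unadjusted P = 0.00345 and adjusted p = 0.653 in limma) against Day 3. The call against saline was lost on leaving out any library of the 2 groups but Day 8 replicate 3, with unadjusted P between 0.0574 without Day 8 replicate 1 and 0.151 without saline 1; it was 0.0592 without saline 2 and 0.113 without Day 8 replicate 2. The call against Day 3 was kept on leaving out each of the 5 libraries in turn.

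Rsad2, whose protein viperin makes an antiviral nucleotide, and Cmpk2, its neighbour on chromosome 12, did not pass the test. Rsad2 measured 25.0 and 17.9 CPM in saline, 24.0 and 19.5 CPM at Day 3, and 9.10, 44.5 and 41.6 CPM at Day 8. The Day 8 libraries held both its lowest and its 2 highest values. Samhd1, whose product depletes deoxynucleotides, measured 59.8 and 39.4 CPM in saline, 30.3 and 30.9 CPM at Day 3, and 26.7, 49.9 and 50.4 CPM at Day 8. Its Day 3 libraries lay below both saline libraries (log2 fold change -0.70, SE 0.39, unadjusted P = 0.110). Trim30a, a regulator of innate signalling, measured 55.3 and 45.7 CPM in saline, 43.6 and 42.5 CPM at Day 3, and 38.0, 51.3 and 84.6 CPM at Day 8, with Day 8 on both sides of the other groups. Bst2, which tethers budding virions, ran between 14.2 CPM in saline 2 and 32.9 CPM in Day 3 replicate 2, and its Day 8 libraries (23.6, 20.1 and 18.8 CPM) lay below those of Day 3 (24.3 and 32.9 CPM). Mx2 stayed under 3 CPM in every library.

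**Figure D3:**
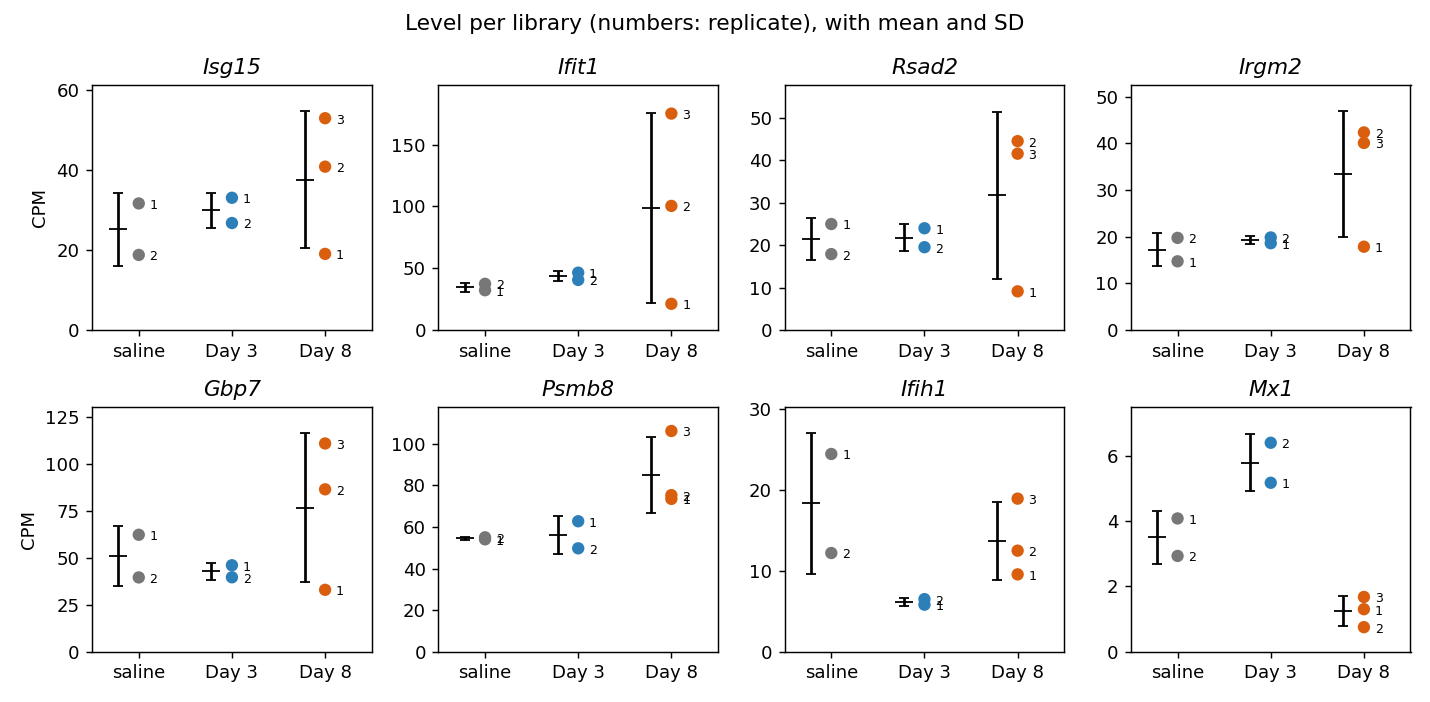
CPM of 8 of the genes in each library (points, numbered by replicate), with the group mean and SD as a bar (n = 2, 2 and 3). In Isg15, Ifit1, Rsad2, Irgm2 and Gbp7, Day 8 replicate 1 lies apart from replicates 2 and 3; Ifih1 is lowest at Day 3 and Mx1 at Day 8.

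The remaining induced genes, which include the poly-ADP-ribose polymerases PARP9 and PARP14 and the chaperone-like RTP4, had fold changes centred near 0 at Day 8 (median -0.04 on the log2 scale). Ifi35, an adaptor that binds NMI, measured 16.2 and 14.7 CPM in saline, 22.3 and 19.3 CPM at Day 3, and between 18.8 and 24.8 CPM in the 3 Day 8 libraries. All 5 CXCL12 libraries lay above both saline libraries, by log2 fold changes of 0.46 (SE 0.30) at Day 8 and 0.44 (SE 0.29) at Day 3, and neither passed the test. Xaf1, a pro-apoptotic protein induced by interferon, measured 8.41 and 9.28 CPM in saline, 12.5 and 12.9 CPM at Day 3, and 7.09, 17.1 and 26.4 CPM at Day 8, where only Day 8 replicate 1 was below saline (0.93, SE 0.55, unadjusted P = 0.133). Rtp4 measured 71.8 and 32.1 CPM in saline, 46.5 and 52.2 CPM at Day 3, and 33.6, 51.2 and 70.8 CPM at Day 8, so that saline 1 and Day 8 replicate 3 were nearly level and the group difference was close to 0. Parp14 had its highest value in saline 1 (51.4 CPM) and its lowest in saline 2 (14.1 CPM).

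The interferon-inducible GTPases take part in the defence against pathogens in vacuoles and are strongly driven by interferon gamma. They had 6 of 6 positive fold changes both against saline (median 0.42) and against Day 3 (median 0.58). Over all genes, 49.3% and 50.1% of fold changes were positive. None of the 6 passed the test in either comparison. In each of them Day 8 replicate 1 lay below the other Day 8 libraries, so they are not 6 separate results. Irgm2 measured 14.7 and 19.7 CPM in saline, 18.6 and 19.8 CPM at Day 3, and 17.8, 42.3 and 40.1 CPM at Day 8. Day 8 replicates 2 and 3 were about level and above all other libraries, whereas Day 8 replicate 1 lay within saline (log2 fold change 0.96, SE 0.44, unadjusted P = 0.0647). Gbp7 showed the same split, with 62.3 and 39.6 CPM in saline, 46.1 and 39.6 CPM at Day 3, and 33.0, 86.5 and 111 CPM at Day 8. Gbp2 measured 45.5 and 30.5 CPM in saline, 36.4 and 32.2 CPM at Day 3, and 21.1, 53.9 and 60.7 CPM at Day 8. Igtp, the neighbour of Irgm2, measured 18.8 and 12.02 CPM in saline, 13.8 and 8.91 CPM at Day 3, and 8.39, 19.0 and 24.4 CPM at Day 8. In all 4 of these genes Day 8 replicates 2 and 3 exceeded both saline libraries. Gbp3 was the one member of this family in which Day 8 and Day 3 did not overlap, as its Day 8 libraries (33.4, 59.6 and 63.9 CPM) were above those of Day 3 (29.9 and 32.7 CPM; 0.72, SE 0.35, unadjusted P = 0.0729).

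The antigen-processing genes cluster on chromosome 17 and encode the immunoproteasome subunits PSMB8 and PSMB9 and the peptide transporter subunit TAP1. Psmb8 measured 54.0 and 55.0 CPM in saline, 62.7 and 49.7 CPM at Day 3, and 73.5, 75.3 and 106 CPM at Day 8. All 3 Day 8 libraries, replicate 1 included, lay above both other groups, but the fold change stayed under 2 (log2 0.64, SE 0.29, unadjusted P = 0.0635 against saline; 0.64, SE 0.25, unadjusted P = 0.0303 against Day 3). Psmb9 measured 9.39 and 25.9 CPM in saline, 24.1 and 25.0 CPM at Day 3, and 22.6, 30.8 and 50.7 CPM at Day 8, with saline 1 lowest. Tap1, its neighbour, had its highest value in that library, with 37.2 and 13.3 CPM in saline, 15.4 and 12.2 CPM at Day 3, and 14.5, 21.8 and 27.2 CPM at Day 8. The direction of saline 1 against saline 2 was thus opposite in these adjacent genes.

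At Day 3 against saline, the median log2 fold change of the 42 genes was -0.05 (0.01 over the 14850 genes tested), with 17 positive and 25 negative. None of the 42 was counted as higher (1.9% of all genes) and 1, Ifih1, as lower (2.62% of all genes). The adjusted p of 0.1 was passed by none of the 42 and by none of the table (0% called by limma with Benjamini-Hochberg adjustment), and 1 of the 42 had an unadjusted P under 0.05, against 1095 of all genes. Both Day 3 libraries lay above both saline libraries in 4 of the 42 genes (Ifit1, Mx1, Xaf1 and Ifi35; 25% of all genes) and below them in 5 (Ifih1, Oas3, Trim25, Trim30a and Samhd1; 23.7% of all genes). Both shares are smaller than those of the table.

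At Day 8 against Day 3, 33 of the 42 genes had a positive and 9 a negative fold change, with a median of 0.30 (0.00 over all genes). By the fold and unadjusted P rule, 1 was counted as higher (Ifih1; 2.26% of all genes) and 1 as lower (Mx1; 2.41% of all genes). No gene passed the adjusted p of 0.1 in limma (0% called), 3 of the 42 had an unadjusted P under 0.05 (Mx1, Ifih1 and Psmb8), and 1070 of all genes did. All Day 8 libraries were above both Day 3 libraries in 7 of the 42 genes, namely Irf1, Oas3, Ifih1, Trim25, Gbp3, Psmb8 and Cmpk2 (15.6% of all genes), and below them in 2, Mx1 and Bst2 (17% of all genes).

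**Figure D4:**
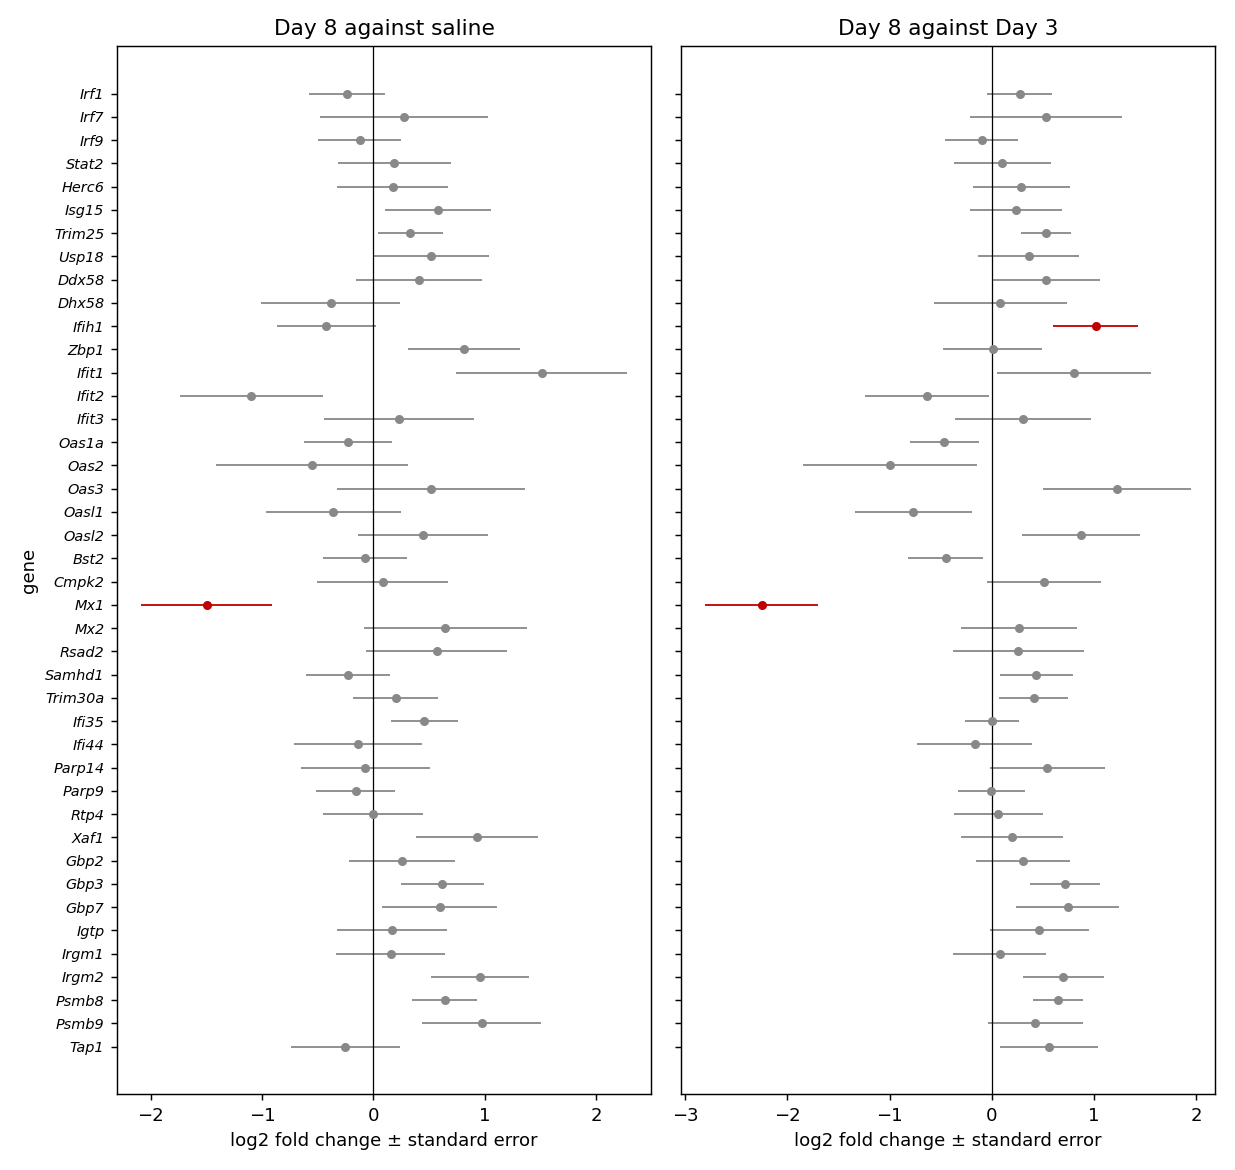
Log2 fold change (x axis, point) with its standard error (bar) of the 42 genes at Day 8 against saline (edgeR, left) and against Day 3 (limma, right), red where the fold was at least 2 and the unadjusted P under 0.05. Mx1 is red in both panels and Ifih1 in the right one, and most other bars reach or nearly reach 0.

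Because the name of its table and its label differ, Day 8 replicate 1 was left out or counted with Day 3. As this library was below both other Day 8 libraries in 37 of these same genes, the higher counts follow in part from removing or moving it and are no independent support. Left out, 4 of the 42 genes were counted as higher at Day 8 than in saline (Ifit1, Rsad2, Xaf1 and Irgm2; 3.44% of all genes) and 0 as lower (3.25%). None of the 42 passed the adjusted p of 0.1 (0.0977% of all genes), the lowest being 0.270. Against Day 3, 7 were counted as higher (Ifit1, Oas3, Oasl2, Ifih1, Gbp3, Gbp7 and Irgm2; 5.7% of all genes) and 1, Mx1, as lower (5.62%). There, Ifit1 and Irgm2 passed the adjusted p of 0.1 in limma (adjusted p = 0.0624 and 0.0973), where 3.28% of all genes did. The median of the 42 against Day 3 was 0.68 without this library.

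Counted with Day 3, as its table is named, the same library left 6 genes counted as higher at Day 8 than in saline (Ifit1, Irgm2, Xaf1, Rsad2, Psmb9 and Zbp1; 3.57% of all genes) and 0 as lower (3.87%). None of the 42 passed the adjusted p of 0.1 in edgeR (0.395% of all genes), with Ifit1 the lowest at 0.156. Against the enlarged Day 3 group, 11 of the 42 were counted as higher (26.2%, against 6.02% of all genes) and 1, Mx1, as lower (6.09% of all genes). Of the 42 genes, 8 passed the adjusted p of 0.1 (9.37% of all genes did), all with a higher level at Day 8: Ifit1, Gbp7, Irgm2, Gbp3, Oasl2, Rsad2, Trim25 and Gbp2, with adjusted p from 0.0257 in Ifit1 to 0.0945 in Gbp2 (limma). Of these 8, Trim25 and Gbp3 were under 2-fold (log2 differences of 0.65 and 0.98) and so were not among the 11. Under that placement, Ifit1 was higher by a log2 difference of 2.02 (SE 0.35), Gbp7 by 1.39 (SE 0.27) and Irgm2 by 1.13 (SE 0.22). Which day the library belongs to could not be settled from the labels, and the values under the label remain the main ones.

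The summed markers of leukocytes shared their 3 highest libraries with the 42 genes, although the order of the other libraries and single markers differed. The summed level of the 42 genes was 1274 and 791 CPM in saline, 943 and 911 CPM at Day 3, and 755, 1312 and 1718 CPM at Day 8. The 5 leukocyte markers (Ptprc, Coro1a, Laptm5, Cd53 and Cd52) summed to 304 and 226 CPM in saline, 187 and 180 CPM at Day 3, and 194, 285 and 343 CPM at Day 8. Both sums had saline 1 and Day 8 replicates 2 and 3 as their 3 highest libraries, and so had the 6 macrophage markers (611 and 378 CPM in saline, 283 and 225 CPM at Day 3, 200, 416 and 439 CPM at Day 8) and the 5 endothelial markers, which ran from 125 CPM in Day 8 replicate 1 to 262 CPM in Day 8 replicate 3. The place of saline 1 rested on some of the markers: Ptprc and Laptm5 were highest there, at 58.8 and 121 CPM, whereas Cd53, Adgre1 and Mrc1 were lower in saline 1 than in saline 2 and Cd52 (88.1 CPM) was below all Day 8 libraries. The 6 natural killer cell markers followed another order, with 13.1 and 26.3 CPM in saline, 30.2 and 32.9 CPM at Day 3, and 34.97, 67.7 and 96.1 CPM at Day 8. Ncr1, Klrb1c, Gzma and Gzmb were counted as higher at Day 8 than in saline, where 1.53% of all genes were. Their log2 fold changes were 2.55, 1.40, 1.74 and 2.79, each with an adjusted p of 0.956 in edgeR. Klrd1 was not counted (1.30, unadjusted P = 0.0517 in edgeR). Prf1 went the other way, with every Day 8 library below saline, but had at most 4 reads in the count libraries and was not tested. The defining markers of T cells and of B cells summed to at most 3.09 and 6.86 CPM, over the 4 of 5 listed symbols found for each type. The plasmacytoid dendritic cell markers Siglech and Ccr9 were under 3 CPM in every library, and the sum of that list, which ranged from 473 CPM in saline 2 to 1009 CPM in saline 1, was mostly Tcf4, which other cells also express. Neutrophil markers summed to between 111 and 199 CPM, but the members differed: S100a8 and S100a9 were counted as lower at both days than in saline (log2 fold changes -2.49 and -2.79 at Day 8 and -2.86 and -2.73 at Day 3), while Retnlg had 0.89 and 0.81, under the limit of 2-fold. Smooth muscle markers summed to between 1569 and 4123 CPM, and oviduct markers summed to between 279 and 797 CPM. The part of any of these cells in the levels of the 42 genes was not tested.

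**Figure D5:**
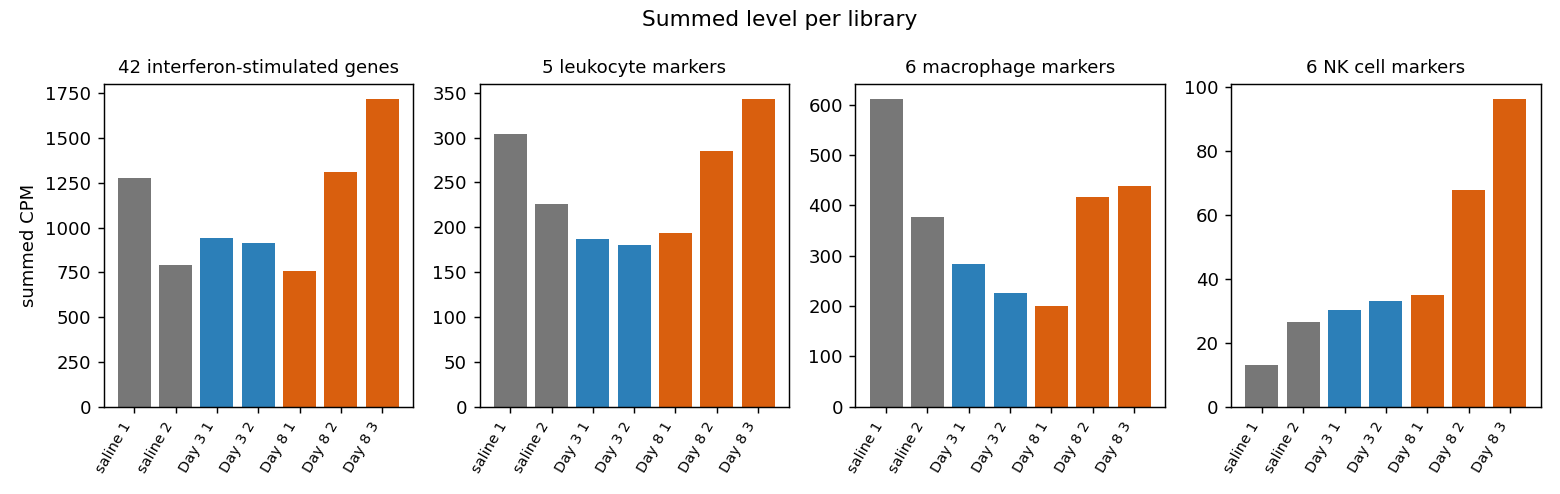
Summed CPM by library of the 42 genes, 5 leukocyte, 6 macrophage and 6 natural killer (NK) cell markers (bars from 0, each panel with its own scale, coloured by group). Saline 1 and Day 8 replicates 2 and 3 are the highest bars in the first 3 panels, and the NK markers are lowest in saline 1.

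The 17 genes with an ISRE core and the 16 with a window but no match differed most in saline 1 and Day 8 replicate 1. In the genes with a match the centred log2 median was 0.29 and -0.45 in saline, -0.12 and -0.24 at Day 3, and -0.63, 0.50 and 0.77 at Day 8. In those without it, the median was 0.61 and -0.44 in saline, -0.19 and -0.11 at Day 3, and -0.32, 0.24 and 0.51 at Day 8. Day 8 replicate 1 was the lowest and Day 8 replicate 3 the highest of the Day 8 libraries in both sets, and the median log2 fold change against saline was 0.25 with and 0.13 without a match.

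Upstream of these genes, most interferon ligands were not detected. Of 11 listed ligands, only Ifne could be tested. Ifnb1, which encodes interferon beta, had no read in any library, which allows up to 0.371 CPM in the shallowest. Ifng, which encodes interferon gamma, was at 0.618 and 0 CPM in saline, near 0 at Day 3, and at 0.118, 0.834 and 0.942 CPM at Day 8, with 10 and 9 reads in Day 8 replicates 2 and 3. Ifne, which encodes interferon epsilon, measured 0.371 and 2.15 CPM in saline, 4.63 and 2.73 CPM at Day 3, and 2.95, 0.584 and 0.942 CPM at Day 8. Both Day 3 libraries were above saline (log2 fold change 2.09, SE 1.06, unadjusted P = 0.0837, limma). Saline 1 and Day 8 replicates 2 and 3, the 3 highest in the summed 42 genes, were the 3 lowest for Ifne. Those 3 values rested on 3, 7 and 9 reads, with saline 1 at the detection floor. A relation of Ifne to the 42 genes was not tested.

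The receptors and the signalling chain were detected in every library. The type I receptor subunits Ifnar1 and Ifnar2 ranged from 23.7 to 35.4 CPM and from 45.1 to 78.3 CPM, with log2 fold changes at Day 8 of -0.04 (SE 0.29) and 0.01 (SE 0.35). Ifngr1, the ligand-binding subunit of the interferon gamma receptor, measured 153 and 63.6 CPM in saline, 68.7 and 58.1 CPM at Day 3, and 75.4, 46.6 and 57.3 CPM at Day 8. Saline 1 alone was high (log2 fold change at Day 8 -0.85, SE 0.42). The kinase gene Jak1 was counted as lower at Day 3 (log2 fold change -1.0001, just past the limit, SE 0.40, unadjusted P = 0.0368), from 422 and 240 CPM in saline to 195 and 197 CPM, and was at 202, 314 and 322 CPM at Day 8. This call was lost without saline 1 (unadjusted P = 0.239) and without either Day 3 library (0.119 and 0.0943).

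Of the 88 listed further genes of the pathway, 77 could be tested. At Day 8 against saline, 2 were counted as higher and 0 as lower (1.53% and 1.42% of all genes), and the median was 0.01 on the log2 scale. At Day 3 against saline, 2 were counted as higher and 1 as lower (1.9% and 2.62% of all genes), with a median of -0.06. None was counted at Day 8 against Day 3 (2.26% and 2.41% of all genes; median 0.21). Socs1, the feedback inhibitor of JAK kinases, was counted as higher at both days. It measured 3.21 and 2.44 CPM in saline, 8.13 and 8.29 CPM at Day 3, and 5.91, 6.42 and 7.96 CPM at Day 8, so that all 5 CXCL12 libraries lay above both saline libraries (log2 fold change 1.63, SE 0.38, unadjusted P = 0.00274 at Day 3 in limma; 1.26, SE 0.44, unadjusted P = 0.0233 at Day 8 in edgeR). The 2 comparisons share the saline libraries, and neither passed the adjustment (adjusted p = 0.623 and 0.956). The call at Day 8 was lost without Day 8 replicate 2 (unadjusted P = 0.0553), without Day 8 replicate 3 (0.0825) and without saline 2 (0.0889).

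Isg20, an exonuclease gene that oestrogen also induces, was counted as higher at Day 8. It measured 54.4 and 88.8 CPM in saline, 144 and 113 CPM at Day 3, and 110, 437 and 707 CPM at Day 8 (log2 fold change 2.54, SE 0.76, unadjusted P = 0.0116, adjusted p = 0.956 in edgeR). All 5 CXCL12 libraries were above saline, and Day 8 replicates 2 and 3 were far above the rest. The call was lost without saline 1 (unadjusted P = 0.0920) and kept without Day 8 replicate 1 (log2 fold change 2.997). Tmem173, which encodes the adaptor STING, was counted as higher at Day 3, with 30.7 and 48.8 CPM in saline, 92.4 and 86.2 CPM at Day 3, and 51.0, 35.3 and 50.7 CPM at Day 8 (log2 fold change 1.11, SE 0.31, unadjusted P = 0.00665, adjusted p = 0.623 in limma). Without saline 1 its log2 fold change was 0.81 and under the limit. The 10 listed genes of class I presentation had none counted in any of the 3 comparisons, where between 1.42% and 2.62% of all genes were in each direction. Their medians were 0.05 at Day 8 and 0.03 at Day 3 against saline.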

How the data were processed

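Total RNA of mouse uterine tissue was read by QuantSeq 3′ sequencing. The authors aligned reads with Bowtie2 and took counts from unique as well as multiple alignments with Bedtools coverage. Their processing notes also name edgeR and the builds mm10 and hg19, with versions not given in the sources used here. For 6 libraries the authors deposited raw read counts. For Day 3 replicate 1 the deposited values are log2(normalized count + 1): 96.8% of 4424 low values came within 0.1 of a whole number of steps of 1.0525, where chance gives 20%.

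For Day 8 against saline, edgeR 4.0.16 was used (glmQLFit, glmQLFTest, TMM, filterByExpr) on the 6 count libraries in 3 groups (3 residual degrees of freedom, 15388 genes); SE is the log2 fold change divided by the square root of F. Day 3 comparisons were made by limma 3.58.1 (trend) on log2(normalized count + 1) values, quantile-normalized over 7 libraries, for 14850 genes with at least 10 normalized counts in 2 libraries (4 residual degrees of freedom). That scale understates fold changes of low genes. CPM are on the TMM scale. Rows of 35 repeated symbols were kept apart. The 42 genes, the role groups, the pathway list and the markers were chosen with earlier results of these data known. Values by library are given for each role's gene with the smallest P at Day 8 and at Day 3 and with the highest mean CPM, for genes counted as changed, for always-named pathway genes (1 is not reported here), and for further genes picked with the values in view. R 4.3.3 and DESeq2 1.42.0 served the alternatives, and the fits were tested on simulated data. Replicate numbers mark no stated pairing and were not used as pairs in the main fits. Same-numbered libraries did not deviate together. In a group of 2, however, the deviations mirror each other, so this cannot tell whether libraries came from horns of the same animal.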

Additional observations from a re-analysis of the deposited data

Results flagged for a closer look

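Mx1 and Ifih1 differed between the 2 CXCL12 days by the fold and unadjusted P rule of the limma fit, with log2 differences of -2.25 and 1.02 (Day 8 minus Day 3). Their adjusted p were 0.653 and 0.692.

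Mx1 and Gbp3 were also on opposite sides of the saline mean at the 2 days, with every Day 3 library on one side and every Day 8 library on the other. The opposite placement itself was not tested. Tested singly against saline, Mx1 was counted as lower at Day 8 (log2 fold change -1.49, unadjusted P = 0.0382, adjusted p = 0.956 in edgeR). Mx1 at Day 3 (0.82, unadjusted P = 0.209 in limma) was not counted. Nor was Gbp3 at Day 8 (0.62, unadjusted P = 0.142 in edgeR) or at Day 3 (-0.11, unadjusted P = 0.776 in limma). For Mx1 the log2 values against the saline mean were 0.67 and 0.97 at Day 3 and -1.19, -2.25 and -0.86 at Day 8, and the Day 8 mean minus the Day 3 mean was -2.25. For Gbp3 they were -0.19 and -0.04 at Day 3 and 0.003, 0.88 and 0.93 at Day 8, and the difference of means was 0.72. The placement of Gbp3 depends on the scale: on CPM, Day 8 replicate 1 (33.4 CPM) lay below the saline mean (34.1 CPM). Such opposite placement was found in 2 of the 42 genes (4.76%) and in 852 of 14850 genes tested (5.74%).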

How the results depend on the processing

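With Day 8 replicate 1 counted with Day 3, genes counted as changed went from 453 to 1094 at Day 8 against saline and from 693 to 1799 against Day 3, and those of the 42 from 1 to 6 and from 2 to 12. The replicate number as a block gave 157 genes and 0 of the 42 at Day 8 against saline, and 426 and 1 against Day 3; the numbers mark no stated pairing, and same-numbered libraries had deviations correlated at -0.05 (saline and Day 3, both pairs), -0.17 (saline 1 and Day 8 replicate 1) and -0.08 (saline 2 and Day 8 replicate 2). At Day 8 against saline, 2 of the 42 were counted by DESeq2 and by limma. With at least 10 counts in every library 0 were counted, and Mx1 was not tested. The shares of all genes counted under these settings are not given here, so these counts cannot be set against them. DESeq2 called 43 genes at an adjusted p of 0.1, with 0 of the 42. Without quantile normalization, 1043 genes were counted at Day 3 against saline instead of 671. A pseudocount of 5 left 1 of the 42 at Day 8 against Day 3, for which the share of all genes is also not given here.

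Leaving out each library in turn gave between 229 and 1527 genes (0 to 4 of the 42) at Day 8 against saline, between 225 and 2824 (0 to 5) at Day 3 against saline, and between 279 and 1670 (1 to 8) at Day 8 against Day 3. Where 1 library of a group was left, it was taken to vary like the other groups. The highest counts came without saline 2 (1527 and 2824 genes, 2 and 5 of the 42) and without Day 8 replicate 1 (1670 genes, 8 of the 42). Without saline 2, 3 of the 42 (Irf1, Ifih1 and Tap1) had an adjusted p under 0.1 in limma at Day 3 against saline, where 2350 of 14696 genes had. Against saline, Irf1 ran from -0.64 to 0.33 at Day 8 and from -0.9994 to 0.079 at Day 3, and Tap1 from -1.46 to 0.11 at Day 3 (log2), positive without saline 1 and lowest without saline 2. The changes of the median of the 42 at Day 8 against saline are given beside it. At Day 3 against saline the median was 0.29 without saline 1 and -0.50 without saline 2, and at Day 8 against Day 3 it stayed positive in every alternative. The cause of these changes was not tested. Of 293 values of the 23 gene results under alternatives, 248 kept their direction and call, 32 lost and 10 gained the call, and 3 turned. With 2 or 3 libraries a group, and Mx1, Mx2, Oas2 and Oas3 at few reads, small differences were not detectable at this depth.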

Other observations

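Further targets of interferon that the 42 genes do not hold were read in the same libraries, and the examples given here were picked after their values were seen. Iigp1, a vacuole-attacking GTPase, measured 68.6 and 34.7 CPM in saline, 50.5 and 54.5 CPM at Day 3, and 29.3, 106 and 115 CPM at Day 8, with the lowest and the 2 highest values at Day 8 (log2 fold change 0.69, SE 0.61, unadjusted P = 0.290 against saline in edgeR). Ifit3b, the close relative of Ifit3, measured 9.64 and 3.52 CPM in saline, 6.44 and 4.51 CPM at Day 3, and 2.24, 14.6 and 16.1 CPM at Day 8. The chemokine genes Cxcl9 and Cxcl10, classical targets of interferon gamma, were low throughout, with at most 6.06 and 3.58 CPM.

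Of the 10 listed class I genes, H2-K1, H2-D1 and B2m had their highest value in saline 1, and the other 7 had it elsewhere. H2-K1, a class I heavy chain gene, was at 1192 CPM in saline 1 and between 361 and 523 CPM in the other 6 libraries. B2m, which encodes the class I light chain, was at 2260 CPM in saline 1 and between 988 and 1655 CPM elsewhere. Eif2ak2, which encodes the RNA-activated kinase PKR, varied from 18.3 CPM in Day 8 replicate 2 to 33.6 CPM in Day 3 replicate 1.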
